A study of Homo sapiens with 6 samples.

Results

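The genes of the mitochondrial respiratory chain were compared between tumors of epinephrine-treated and PBS-treated mice. They were taken by symbol from the array annotation, as the genes named NDUF, SDH, UQCR, CYC1, COX or ATP5, each read by whichever of its probesets was brightest on average. This gave 105 of the 18132 genes with a value. Of these, 87 encode subunits (36 of complex I, 3 of complex II, 9 of complex III, 21 of complex IV and 18 of complex V), 17 encode assembly factors and 1 encodes the inhibitor of the ATP synthase.

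The tumors grew from MDA-MB-231, a human breast cancer cell line of the triple-negative type, in immunodeficient NOD/SCID mice that were 4 to 6 weeks old. Both flanks received the cells in a mixture of PBS and Matrigel. The Epi group (3 arrays) was given epinephrine under the skin at 2 mg/kg per day, begun 7 days ahead of the cancer cells, and the PBS group (3 arrays) was given the same volume of PBS. The sample descriptions also carry codes that neither the labels nor the paper explain, E0 on the PBS samples, E10 on Epi replicates 1 and 3 and E20 on Epi replicate 2, so the groups here rest on the titles and the treatment named there. RNA came from cells taken out of the tumors and was read on Affymetrix Human PrimeView arrays. The labels call the samples of a group biological replicates but do not say whether they came from separate mice, so the p-values measure the spread between these samples. The study asked how stress hormones alter the metabolism and stem-like state of breast cancer cells, and the comparison addresses whether the transcripts of the respiratory machinery differed with epinephrine.

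The respiratory chain lies in the inner mitochondrial membrane. Complex I takes electrons from NADH and complex II takes them from succinate, ubiquinone carries them to complex III, cytochrome c carries them on to complex IV, and complex IV passes them to oxygen. Complexes I, III and IV pump protons, and complex V, the ATP synthase, uses the returning protons to make ATP. Most subunits are encoded in the nucleus, some as isoforms that replace one another by tissue or condition, and a small core is encoded by mitochondrial DNA.

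All values are on the log2 scale, so a difference of 1 is a 2-fold difference, and every difference is given as Epi minus PBS. The number of arrays limits the precision. In limma without a term for the replicate number, 0 of the 105 genes passed an adjusted p of 0.05, as did 0 of all 18132 genes (0%). At an unadjusted p under 0.05 the same test counted 1 of the 105 and 241 of all genes (1.33%). With the replicate number as a block, 122 of all genes passed the adjusted threshold (0.673%), 64 of them higher in Epi (0.353%), and 1 of the 105 passed, also higher. At an unadjusted p under 0.05 the block fit counted 1 of the 105 against 946 of all genes (5.22%). The 1 gene was COXFA4L3 in each of these limma counts. The groups did not overlap in 2 of the 105 genes: Epi was wholly above PBS in COXFA4L3 (178 of all genes, 0.982%), and wholly below it in NDUFAF7 (403 of all genes, 2.22%).

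**Figure D1:**
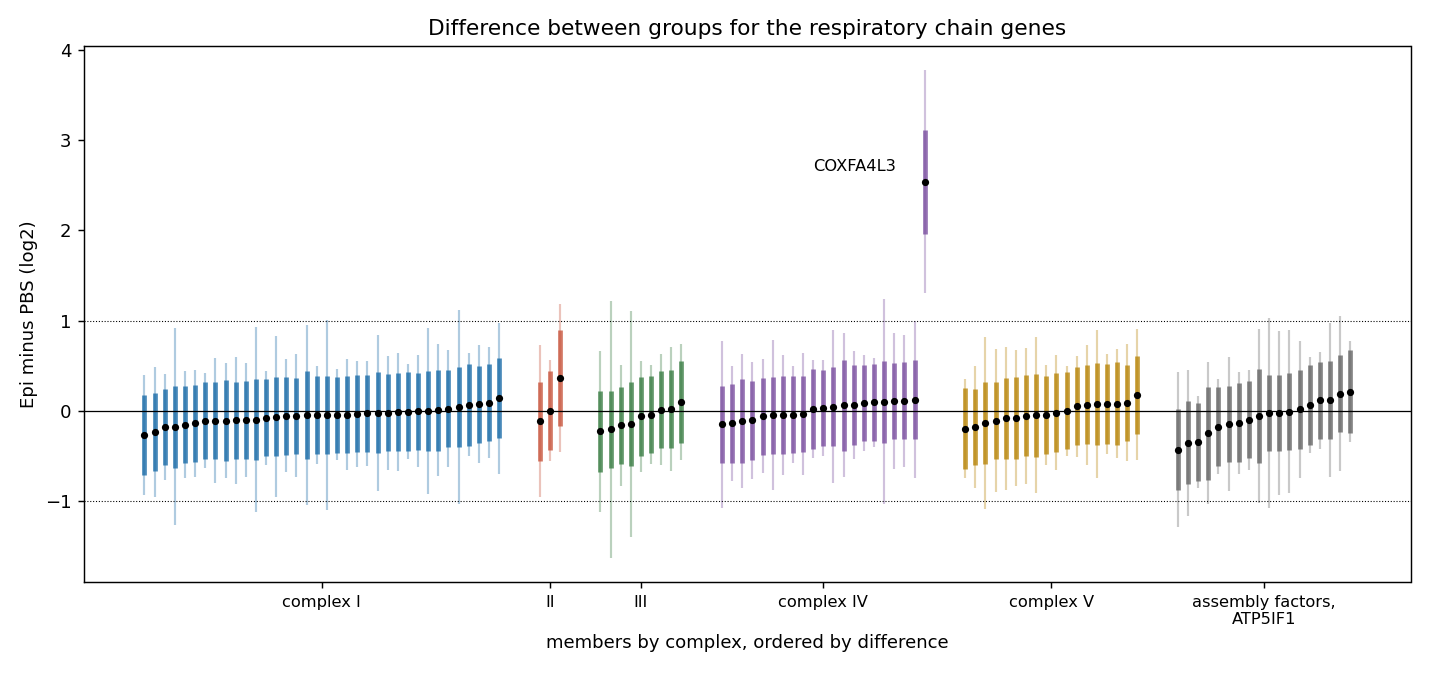
Epi minus PBS (log2, vertical axis) of each of the 105 genes, ordered along the horizontal axis by complex and by difference, with dots for the difference, thin pale bars for the 95% interval of limma without a block, thick bars for the interval with the replicate block, and dotted lines at a 2-fold difference. COXFA4L3 sits apart at 2.54, and the other 104 genes lie between -0.43 and 0.37.

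The exception was COXFA4L3, also known as C15orf48 or NMES1, a paralog of the complex IV subunit COXFA4 (formerly NDUFA4) that is known to take the place of COXFA4 in complex IV in inflamed cells. Its values were 5.33, 5.92 and 4.80 in PBS replicates 1, 2 and 3 and 6.83, 9.06 and 7.78 in Epi replicates 1, 2 and 3. The groups did not overlap, and the lowest Epi array was above the highest PBS array. PBS replicates 1 and 3 lay under 5.69, the 30th percentile of the gene means, so the gene was dim in that group. The group means were 5.35 ± 0.56 in PBS and 7.89 ± 1.12 in Epi (SD, n = 3 each). The difference was 2.54 (SE 0.54, 95% interval 1.30 to 3.77) or a 5.81-fold ratio of the measured levels, which rests on the dim PBS values. Without Epi replicate 2, the highest array and the one coded E20, the difference was 1.95 in limma without the block and did not pass (adjusted p = 1.00). Without both replicate 2 arrays it was 2.24 with the block and passed in limma (adjusted p = 8.37e-09). limma draws the spread of each gene toward a value shared between genes. With so few arrays this p reflects that shared value more than the spread of the gene itself.

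Without the block this difference did not pass in limma after adjustment (unadjusted p = 0.00134, adjusted p = 1.00). With the replicate block it did pass in limma (SE 0.27, 95% interval 1.96 to 3.11, adjusted p = 1.80e-04). That SE leans largely on the spread shared between genes, and for COXFA4 it was 0.20 with the block. The interval leaves out the difference of 1.5 in replicate 1. With every probeset in the block fit, the adjusted p was 0.0271 in limma. The difference within replicates 1, 2 and 3 was 1.5, 3.14 and 2.97. All 3 had to be above 0, because the groups did not overlap. The call was lost when the arrays were quantile normalized before the block fit (difference 2.49, adjusted p = 0.0865 in limma). The gene had 1 probeset on the array, so no other probeset could be set beside it.

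COXFA4 and COXFA4L2, the other members of this small family, had small differences that did not pass the test. COXFA4, a subunit of complex IV in most tissues, measured 11.87, 12.58 and 12.65 in PBS and 11.94, 12.72 and 12.78 in Epi, with overlapping groups and a difference of 0.11 (95% interval -0.64 to 0.87, or -0.31 to 0.53 with the block). COXFA4L2, known as a target of the hypoxia-inducible factor that lowers complex I activity, measured 6.58, 6.23 and 6.52 in PBS and 7.22, 6.41 and 5.89 in Epi. Its highest and its lowest value were both in Epi, and its difference was 0.06 (95% interval -0.73 to 0.86). The intervals of both genes without the block lie below the lower limit of 1.30 for COXFA4L3, but the difference between the 3 genes was not tested.

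**Figure D2:**
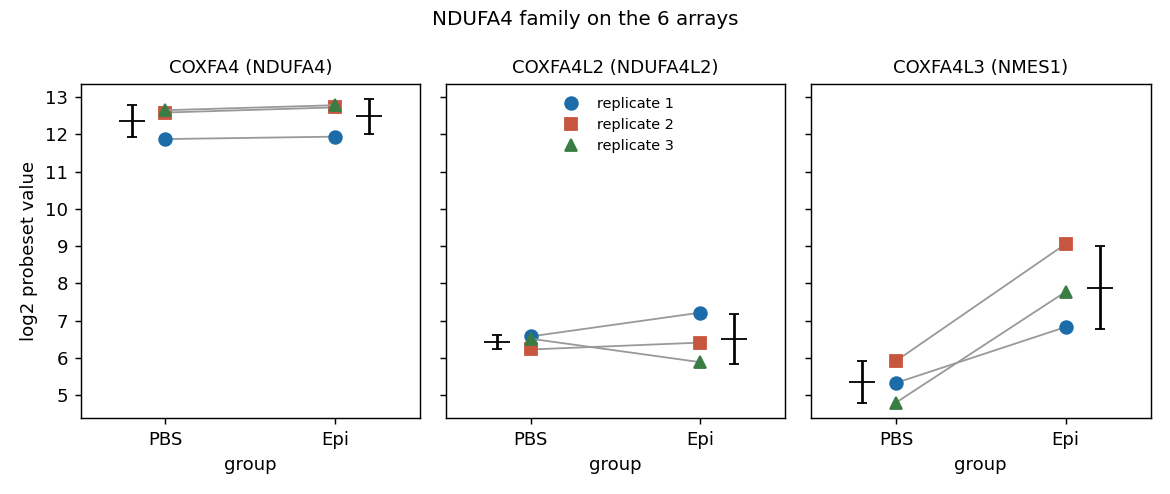
Log2 value (vertical axis) of COXFA4L3, COXFA4 and COXFA4L2 on each array, PBS and Epi side by side, with lines joining arrays of the same replicate number and black marks for the mean ± SD of 3 arrays. The 3 COXFA4L3 lines all climb, from 4.80 to 5.92 in PBS to 6.83 to 9.06 in Epi, while those of COXFA4 stay nearly level and those of COXFA4L2 cross.

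The promoters of COXFA4L3 and COXFA4 are shown so that the gene that passed with the block can be set beside its paralog. Each is the run of 250 bases that ends at the base before the RefSeq start (GRCh38.p14), written 5′ to 3′ on the strand of the gene, chr15:45430360-45430609 on the plus strand for COXFA4L3 and chr7:10940154-10940403 on the minus strand for COXFA4. Capitals mark matches to the motifs listed further on.
COXFA4L3: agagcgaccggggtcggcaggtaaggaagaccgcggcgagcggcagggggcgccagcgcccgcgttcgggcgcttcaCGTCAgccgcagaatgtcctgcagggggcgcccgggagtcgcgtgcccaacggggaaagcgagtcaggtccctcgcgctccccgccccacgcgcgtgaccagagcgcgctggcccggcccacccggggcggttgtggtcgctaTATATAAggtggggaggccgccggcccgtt
COXFA4: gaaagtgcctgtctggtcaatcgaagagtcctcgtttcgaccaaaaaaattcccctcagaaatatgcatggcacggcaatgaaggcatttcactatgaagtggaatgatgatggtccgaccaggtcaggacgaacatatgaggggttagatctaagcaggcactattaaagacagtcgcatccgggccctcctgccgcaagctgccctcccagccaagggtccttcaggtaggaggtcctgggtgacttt
In COXFA4L3 the capitals are CGTCA, which reads TGACG on the other strand, the short form of the cAMP response element, beginning 173 bases before the start, and the TATA box TATATAA, beginning 30 bases before it. COXFA4 held none of the letters searched. These are matches of letters, and binding was not measured.

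The span of the COXFA4L3 gene also contains the microRNA miR-147b, shown here because it lies at the same locus (chr15:45433098-45433118, plus strand, GRCh38.p14, 21 bases). Capitals mark the seed, bases 2 to 8. The array did not measure the mature microRNA.
hsa-miR-147b-3p: gUGUGCGGaaaugcuucugcu

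Apart from COXFA4L3, 104 genes differed by -0.43 to 0.37, with a median of -0.04. The lowest unadjusted p among them in limma was 0.157, and 0.0625 with the block. Without the block, both limits of the 95% interval were within 2-fold for 86 of the 105 genes (81.9%), against 72.8% of all genes. This count was 54 without Epi replicate 2, 56 without Epi replicate 3 and 56 without PBS replicate 3. With the block this held for 104 of the 105, all but COXFA4L3 (all genes 95.7%), and both limits were within 1.5-fold for 85 (81.0%), against 57.6% of all genes. The widest limits with the block were a lower limit of -0.88 for COX20 and an upper limit of 0.90 for SDHD. The 105 genes were bright, with a median level of 11.07 against 6.88 over all genes and 83 of them in the top decile.

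Complex I, the largest complex and the main entry point for electrons, had 36 subunits under the choice by symbol, none of which passed the test. The mitochondrially encoded subunits ND1 and ND4 were also measured but fall outside that choice, and they are counted further on. The median difference was -0.04, 8 of 36 lay above 0, and the range was -0.27 to 0.14, against a median of -0.02 over all 18132 genes. Over all genes, 8285 lay above 0 and 9847 below, to be set beside the counts of each complex. Both limits of the interval without the block were within 2-fold for 31 of the 36. In the module that oxidizes NADH, 2 of the 3 core subunits were above 0 and 1 was below. In the module that reduces ubiquinone, 1 of the 3 core subunits was above 0, and among the 20 accessory subunits of the membrane arm 4 were.

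The complex I subunits with the lowest p were NDUFA3, NDUFB8 and NDUFS7. NDUFA3, an accessory subunit of the membrane arm, measured 10.91, 11.80 and 11.39 in PBS and 10.83, 11.19 and 11.28 in Epi. Its groups overlapped, the difference was -0.27 (95% interval -0.93 to 0.40), and its 3 other probesets gave -0.33 to -0.09. NDUFB8, an accessory subunit often used as a protein marker of assembled complex I, measured 11.78, 12.58 and 12.25 in PBS and 11.49, 12.19 and 12.24 in Epi, a difference of -0.23. NDUFS7, a core subunit that carries the iron-sulfur cluster next to ubiquinone, measured 10.22, 10.83 and 10.42 in PBS and 10.12, 10.53 and 10.29 in Epi, a difference of -0.18. In all 3 genes the groups overlapped, and the lowest array was that of Epi replicate 1.

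Complex II, which is also succinate dehydrogenase of the tricarboxylic acid cycle, was analysed through SDHA, SDHC and SDHD. SDHA, the flavoprotein that oxidizes succinate, measured 9.96, 10.94 and 10.41 in PBS and 9.66, 10.71 and 10.61 in Epi, a difference of -0.11 (95% interval -0.95 to 0.73). SDHC, a membrane anchor, measured 9.98, 10.10 and 9.69 in PBS and 9.69, 10.13 and 9.96 in Epi, and its difference was 0.00 (95% interval -0.55 to 0.56). Neither gene separated the groups. SDHD, the other membrane anchor, measured 9.89, 9.44 and 10.15 in PBS and 9.46, 10.49 and 10.62 in Epi. Its difference of 0.37 was the highest after that of COXFA4L3, but the 95% interval ran from -0.46 to 1.19, the pairs gave -0.43, 1.06 and 0.47, and its 4 other probesets gave -0.17 to 0.24.

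Complex III, which passes electrons from ubiquinol to cytochrome c, had 9 measured genes with a median difference of -0.06, 3 of them above 0, and a range of -0.23 to 0.10. None passed the test. CYC1, the cytochrome c1 core subunit, measured 11.88, 12.54 and 12.15 in PBS and 11.60, 12.36 and 12.13 in Epi, a difference of -0.16 with overlapping groups. Of the core-like proteins that frame the complex, UQCRC1 differed by -0.20 and UQCRC2 by 0.10. UQCRHL, a near-copy of UQCRH, differed by -0.23 and UQCRH by 0.02, and binding of the probes of one to the transcript of the other cannot be told apart from its own signal.

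Complex IV, cytochrome c oxidase, had 21 measured subunits with a median difference of 0.03, 12 of them above 0. COX3, a core subunit made from mitochondrial DNA, measured 13.31, 14.03 and 14.05 in PBS and 13.49, 13.71 and 14.05 in Epi, a difference of -0.04. The 12 genes above 0 were all among the 16 genes of isoform families, and COX5A, COX5B, COX6C and COX7C, which have no isoform, lay between -0.14 and -0.03. COX6C, with the lowest p of those 4, differed by -0.14.

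Several complex IV subunits exist as isoforms of different tissues. COX4I1, the common form of the subunit that regulates the enzyme by ATP, differed by -0.10 (95% interval -0.75 to 0.54). COX4I2, the form of lung and of low oxygen, measured 5.42, 6.16 and 5.97 in PBS and 5.85, 5.91 and 5.99 in Epi, a difference of 0.07, so neither form showed a change that passed the test. Of the liver and muscle forms, COX6A1 differed by 0.03 and COX6A2 by 0.02, COX7A1 by 0.10, COX7A2 by -0.06 and COX7A2L, a factor that joins complexes III and IV, by -0.15. Of the forms best known from testis, COX6B2 differed by -0.11 (COX6B1 by 0.11), COX7B2 by 0.05 (COX7B by 0.13) and COX8C by 0.10 (COX8A by 0.09). COX8C and COX7A1 were dim on the array. Apart from COXFA4L3, no isoform passed either fit.

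Complex V had 18 measured genes with a median difference of -0.03, 8 of them above 0, and a range of -0.20 to 0.18. The catalytic subunits ATP5F1A and ATP5F1B differed by -0.08 and -0.10. ATP5F1D, of the central stalk, measured 10.12, 10.87 and 10.41 in PBS and 9.91, 10.59 and 10.37 in Epi, a difference of -0.18. The c ring, which turns as protons pass, is made of one protein encoded by 3 genes. ATP5MC1 measured 9.66, 10.42 and 9.78 in PBS and 9.69, 10.56 and 10.15 in Epi (difference 0.18), ATP5MC2 measured 11.70, 11.89 and 11.50 in PBS and 11.69, 11.27 and 11.54 in Epi (difference -0.20), and ATP5MC3 differed by -0.04. The 3 genes thus had small differences of either sign, and none passed the test. ATP5IF1, the inhibitor that stops the synthase from running backwards, differed by 0.12.

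The assembly factors and ATP5IF1 had a median difference of -0.04, with 6 of 18 above 0. NDUFAF7, a methyltransferase that acts on a complex I core subunit, measured 8.17, 7.99 and 7.98 in PBS and 7.65, 7.60 and 7.85 in Epi. Its groups did not overlap, but the difference of -0.34 (95% interval -0.85 to 0.16) did not pass in limma (unadjusted p = 0.157, or 0.108 with the block), and its other probesets gave 0.16 and -0.25. COX20, a chaperone of the complex IV core subunit COX2, measured 8.42, 8.64 and 9.12 in PBS and 7.56, 8.41 and 8.92 in Epi. It was lower in Epi in each pair, with a difference of -0.43 (95% interval -1.28 to 0.43, or -0.88 to 0.03 with the block), and its other probesets gave 0.09 and 0.04. NDUFAF3, which builds the ubiquinone-reducing module of complex I, differed by -0.35 (95% interval -1.16 to 0.45). None of the 3 passed the test.

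Across the 105 genes, 140 further probesets had a value, for 65 of the genes. In limma none of these passed, with or without the block, and 0 had an unadjusted p under 0.05 without it. With the block 1 did, another probeset of NDUFC2, an accessory subunit of complex I, with a difference of 0.44 (unadjusted p = 0.0453, adjusted p = 1.00 in limma), named after its value was seen. Their differences ran from -0.43 to 0.50, with a median of -0.03, and 95 of the 140 had the sign of the probeset used for the gene. Of the probesets used, 24 had names ending in x_at, which marks probes that can bind other transcripts, and 21 had names ending in s_at, which marks probes that several transcripts share.

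The gap between replicate numbers was wider than that between treatments for the respiratory chain genes as a whole. The mean of both replicate 1 arrays lay below the mean of the other 4 in 97 of the 105 genes (92.4%), against 69.0% of all genes. The median gap was -0.54 for the 105 genes and -0.28 for all genes, where the median difference between treatments was -0.04. UQCRC1, whose values were 10.69, 12.71 and 12.27 in PBS and 10.52, 12.33 and 12.21 in Epi, had the widest gap, -1.78. The gap was -1.49 in UQCRB, a small accessory subunit of complex III, and -1.27 in NDUFA12, an accessory subunit of complex I. COX7A1, the heart and muscle isoform of complex IV, ran the other way, at 6.26, 5.25 and 5.21 in PBS and 6.77, 5.21 and 5.03 in Epi (gap 1.34). Its mean level of 5.62 was under the dim level of 5.69. UQCRB and NDUFA12 were named after their values were seen. The gap was smaller after scaling: its median was -0.33 after median centring and -0.10 after quantile normalization, when 85 and 71 of the 105 lay below.

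**Figure D3:**
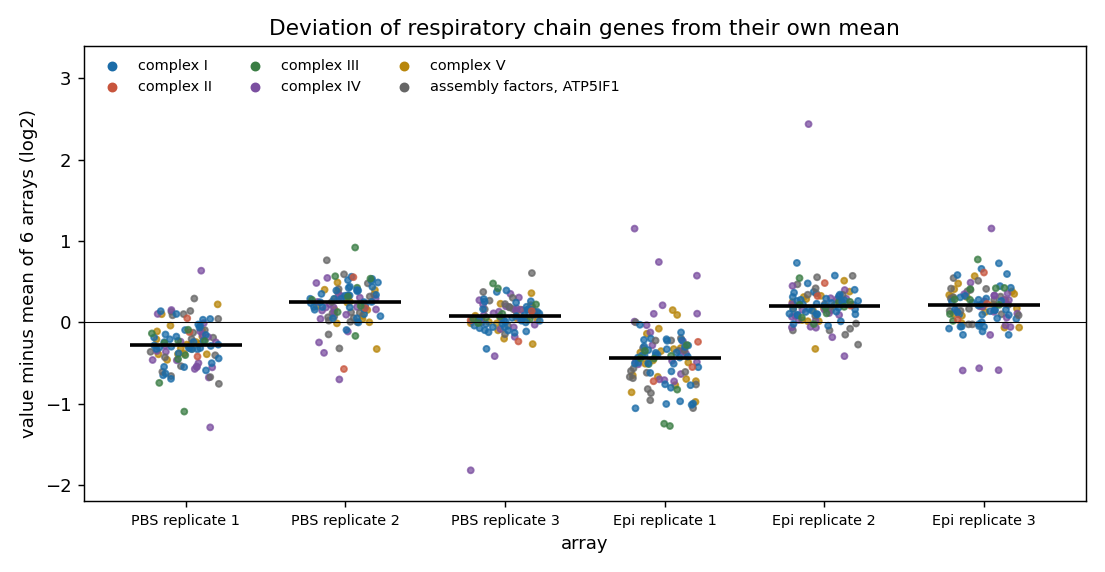
Deviation of each of the 105 genes from its own mean over 6 arrays (log2, vertical axis), for each array, with points for genes and a black bar for the median over the 105. Both replicate 1 arrays lie below the other 4, a replicate 1 gap of -0.54 at the median, and the values of the genes spread around it.

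The replicate 1 arrays also stood apart over all genes, each read by its brightest probeset. They correlated at 0.982 with each other and at 0.935 to 0.962 with the other arrays, which correlated at 0.972 to 0.989 among themselves, and their deposited values carried at most 6 significant digits where the others carried 9. Array medians over all probesets ran from 5.98 to 6.42. What the replicate numbers stand for is not given, and the part of this difference in the values above was not tested. COXFA4L3 is given here without both replicate 1 arrays (difference 3.06, adjusted p = 0.122 in limma) and with a term for them (difference 2.54, adjusted p = 0.0343 in limma).

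Within a replicate number, Epi minus PBS had a median over the 105 genes of -0.20 in replicate 1, -0.06 in replicate 2 and 0.14 in replicate 3, against 0.04, -0.05 and -0.08 over all genes. In replicate 1, 86 of the 105 genes were lower in Epi, and in replicate 3, 84 were higher, so the pairs ran in opposite directions. The same order held for complex I (-0.23, -0.06 and 0.11), complex V (-0.25, 0.04 and 0.17) and complex II (-0.30, 0.03 and 0.27), but not for complex IV (0.12, -0.06 and 0.05). Complex III had -0.18, -0.18 and 0.20, so its replicates 1 and 2 were nearly equal. The opposite medians of replicates 1 and 3 stayed after median centring (-0.26 and 0.18) but not after quantile normalization, when the medians were 0.00, -0.02 and 0.05 and 53 of the 105 genes were higher in Epi in replicate 1.

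**Figure D4:**
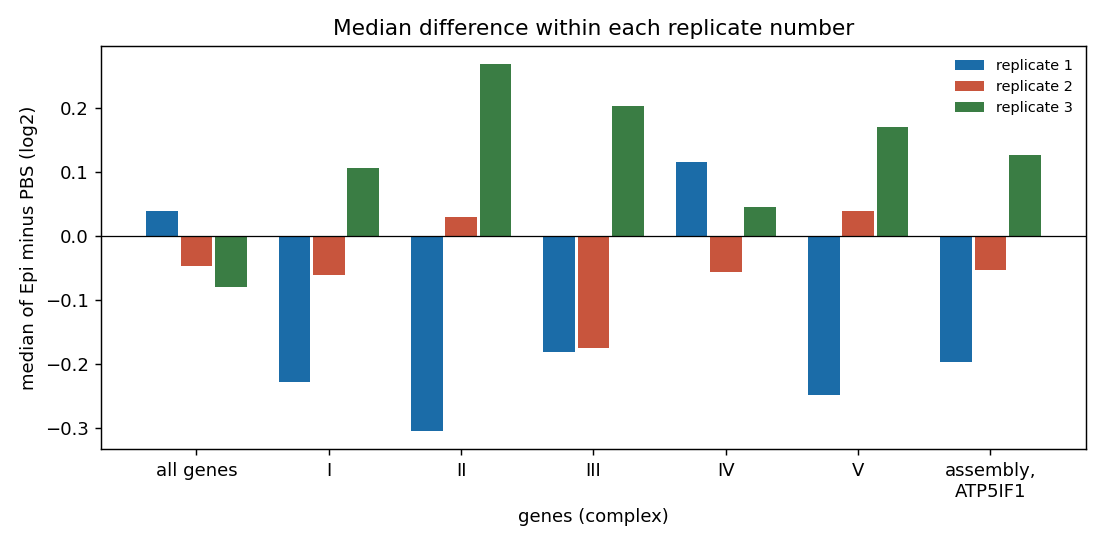
Median over genes of Epi minus PBS (log2, vertical axis) within each replicate number, for each complex and for all genes, as deposited and with no error bars. Replicate 1 lies below 0 for complexes I, II, III and V and replicate 3 above 0 for each complex, with medians over the 105 genes of -0.20 and 0.14 that become 0.00 and 0.05 after quantile normalization.

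Genes that supply, build or control the chain were counted next. None of 3 mitochondrially encoded genes, 38 other assembly factors, 15 regulators of mitochondrial biogenesis, 16 genes of the tricarboxylic acid cycle, 75 genes of the mitochondrial ribosome or 22 electron carriers and transporters passed limma with or without the block. Their medians were -0.04, -0.07, 0.00, -0.04, -0.05 and -0.05, against -0.02 over all genes. The 3 mitochondrially encoded genes were ND1, ND4 and COX3, and COX3 is also counted in complex IV above. The 21 glycolysis genes had a median of -0.24, with 6 above 0. Of them 0 passed without the block and 1, HK2, passed with it, against 122 of all genes (0.673%). HK2, a hexokinase that binds to mitochondria, measured 8.48, 8.91 and 9.09 in PBS and 7.51, 7.21 and 7.90 in Epi. Epi lay wholly below PBS, as in 403 of all genes (2.22%). The difference was -1.29 on the log2 scale (adjusted p = 0.00785 in limma with the block). HK2 is given for these fits only and was not followed through the other scalings or with arrays left out. UCP2, an inner membrane carrier, had a difference of -0.78 that did not pass (adjusted p = 0.315 with the block).

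Markers of the cell line were read as a check of the label. Over 6 genes that MDA-MB-231 is known to express (VIM, CD44, EGFR, S100A4, LGALS1 and ANXA1), the mean was 11.44 to 11.93 on the PBS arrays and 11.37 to 11.91 on the Epi arrays, and none was under the dim level of 5.69. Over 6 genes it is known to lack or hold low, the mean was 5.93 to 6.13 and 5.76 to 6.03, and 3 of the 6 (PGR, CDH1 and EPCAM) were under the dim level. The other 3 were not, with means over the 6 arrays of 8.48 for ERBB2, 7.50 for GATA3 and 7.09 for ESR1, so the low list was met in part. Values of different probes are not on one scale of abundance. The array means of lists for other cells overlapped between groups: the mean over the fibroblast list was 4.80 to 4.97 in PBS and 4.76 to 5.09 in Epi, over the endothelium list 5.60 to 6.58 and 5.96 to 6.42, over the macrophage list 5.30 to 5.83 and 5.48 to 5.55, over the adipocyte list 5.73 to 6.44 and 5.92 to 6.41, and over the skeletal muscle list 5.72 to 6.21 and 5.97 to 6.19. Red cell genes (2 measured) were at 6.41 to 7.20 in PBS and 6.87 to 7.05 in Epi. Of these lists, 4 of 6 fibroblast, 1 of 5 endothelium, 2 of 5 macrophage, 2 of 5 adipocyte, 2 of 6 skeletal muscle and 0 of 2 red cell genes were under the dim level of 5.69, and their part in the results was not tested. The array probes target human transcripts, so mouse cells in the tumor may be read in part. In these bulk samples, fewer cells of a type and less RNA per cell cannot be told apart.

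Promoter motifs were counted as a feature that the choice by symbol did not use, with no test. RefSeq gave a window of 300 bases around the start for 86 of the 105 genes and for 27305 symbols in all, read on both strands. The symbols in all outnumber the 18132 genes tested and were not matched to the 105 for brightness. The shares below may thus not be particular to respiratory genes. The NRF1 motif GCGCANGCG, of a factor known to control respiratory genes, was in 25 of the 86 windows (29.1%) against 8.05% of all. CCGGAAGT, of the ETS factor GABPA, was in 13 (15.1%) against 4.44%, and AAGATGGC, of YY1, was in 11 (12.8%) against 3.03%. At least 1 of these motifs was in 39 of the 86 windows (45.3%) against 14.1% of all, so most windows held none of them, and the COXFA4L3 window held none.

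The cAMP response element TGACGTCA was in 4 windows (4.65%) against 1.98%, and its short form TGACG, which also counts every full element, was in 30 (34.9%) against 25%. CACGTG, the E-box of MYC, was in 9 (10.5%) against 7.43%, TGANTCA, of AP-1, was in 4 (4.65%) against 7.76%, and the TATA box TATANAA was in 5 (5.81%) against 9.51%. COXFA4L3 was 1 of those 5. The motifs were chosen after the values were seen.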

How the data were processed

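RNA of 6 tumors was read on Affymetrix Human PrimeView arrays. The authors deposited log2 values of 49395 probesets, which the submitters' processing notes credit to RMA and Affymetrix Expression Console without versions. RMA corrects the background, normalizes between arrays and summarises probes, and it can compress differences of dim probesets. The deposited arrays still differed in median, at 5.98 and 6.05 for PBS and Epi replicate 1 against 6.37 to 6.42 for the others. They were thus not on one common scale, and whether they were normalized together is not given. The 102 control probesets were left out. GEO's platform annotation gave 44988 probesets 1 gene, 1832 several and 2473 none, and only the first were used. All 105 respiratory chain genes matched RefSeq (GRCh38.p14) by gene identifier.

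Epi and PBS were compared in limma 3.58.1 (R 4.3.3, lmFit and eBayes), adjusted by Benjamini-Hochberg over 18132 genes at 0.05. The study's methods name a t-test for its experiments in general and none for the arrays specifically, so that t-test was an alternative. Replicate numbers come from the labels and were taken as pairs because the deviations of same-numbered arrays correlated at 0.630, 0.627 and 0.453. PBS replicate 3 and Epi replicate 2 also correlated at 0.523. Deviations from the mean of a group sum to 0, so the replicate 1 gap alone can make such values positive. The check thus does not settle pairing. Both fits are given.

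The genes named are those of complex II, the isoform families, in complexes I, III, IV, V and the assembly factors the 3 with the lowest p and the 2 with the lowest p in the block fit, and at most 3 of each other list. Other genes were named after their values were seen. The genes and lists were chosen with earlier results of these data known. The code of both fits was run on simulated data that held the replicate differences of these arrays and the spread of the block fit. Such a run cannot show whether the block suits these data. Promoters were searched with Python 3.11.15 and pandas 2.3.3. Alternatives varied the variance model, test, normalization, dim filter, probeset rule, complex membership, replicate block and arrays, and block fits combined with another change were added after seeing the data.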

Additional observations from a re-analysis of the deposited data

How the results depend on the processing

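The count of genes passing in limma was 0 of 18132 without a block and stayed at 0 under the t-test, other scalings, the filter on dim genes, other probeset rules, the trended variance and each single array left out. The methods' t-test, named there for the study in general, counted 252 of all genes and 2 of the respiratory chain genes at an unadjusted p under 0.05. The limma count was 122 with the replicate block, 40 with a term for the replicate 1 arrays and 16 without both of them. In block fits added after seeing the data it was 9 with quantile normalization, 20 with median centring, 255 with a trended, robust variance, 81 with the mean of a gene's probesets, and 162, 66 and 129 without pair 1, 2 and 3. The respiratory chain count was 1 in these settings and 0 without both replicate 1 arrays and in the block fit with quantile normalization.

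COXFA4L3 kept its sign in each alternative run. Its difference was 2.54 with the block, with the replicate 1 term, and in the block fits with median centring, trended variance and mean of probesets (adjusted p = 1.80e-04, 0.0343, 0.0307, 1.32e-19 and 0.00128 in limma), and it was 3.06, 2.24 and 2.32 in the block fits without pair 1, 2 and 3. Single arrays left out gave 1.95 to 3.07 without passing. The replicate block changed no other call among the 105 genes. The p-values of the block fits lean on the spread that limma shares between genes, so their size does not measure the spread of these few arrays alone.

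Genes with both interval limits within 2-fold numbered 54 to 75 of 105 with single arrays left out, against 86. Complex medians stayed small but changed sign in some alternatives, with ranges of -0.19 to 0.15 (I), -0.13 to 0.22 (II), -0.21 to 0.23 (III), -0.14 to 0.10 (IV) and -0.16 to 0.24 (V). Of 34 named genes, 26 changed sign in at least 1 alternative. Leaving out PBS replicate 1 moved the median of all genes to -0.13. Dim genes have no value under the filter, and 3 arrays a group limit what can be detected.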
